A study of Xenopus tropicalis with 132 samples.

Results

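Cadherins, protocadherins, Eph receptors and ephrins were followed in Xenopus tropicalis animal caps and explants at stage 10.5, the early gastrula. A gene counted as one of them when its symbol began with cdh, pcdh, epha, ephb, efna or efnb followed by a digit, and 54 of the 26550 targets of the bulk RNA-seq tables met this rule. They were 25 cadherins, 12 protocadherins, 12 Eph receptors (9 EphA and 3 EphB) and 5 ephrins (efna1, efna2, efna4, efna5 and efnb2). The same 54 names stood in the 26550 rows of the single-cell tables. The rule used names alone and no measured value. The series held 132 samples, of which chromatin libraries were not used here. Bulk RNA-seq came from animal caps, the ectoderm of the animal pole, in 8 groups of 2 libraries. In 7 groups the caps carried injected mRNA of Foxb1, Eomes, Foxb1 with Eomes, Irx3, Otx2, Irx3 with Otx2, or Lhx8. The 8th group is named WI, a name that the labels do not spell out, and it served as the reference. All bulk groups share the tissue and the stage, and no amount of injected mRNA is given. Single-cell RNA-seq covered explant cells in 4 libraries of 25 cells, AC 1, AC 2, BL 1 and BL 2. For its explants the series description names the animal cap and the dorsal marginal zone. The labels' protocol names 200 picked cells, of which 100 were analysed here.

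Cadherins are membrane proteins that hold cells together by binding cadherins of the same kind on a neighbour, and classical cadherins pass this hold to actin through catenins. Protocadherins are cadherin relatives with weaker adhesion of their own. One of them, the paraxial protocadherin papc (listed here as pcdh8.2), tunes adhesion by C-cadherin during gastrulation in Xenopus. Eph receptors are receptor tyrosine kinases whose ligands, the ephrins, sit on the surface of the neighbouring cell. Contact between the pair often makes cells pull apart, and in the Xenopus gastrula Eph and ephrin signals keep ectoderm and involuting mesoderm from mixing.

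The bulk libraries held 3234566 to 9218356 counts, and the explant libraries 755591 to 3002901 reads in genes, with medians of 26325 to 96589 reads per cell. The injected factors were each highest in the libraries that carry their names. The file names number the bulk libraries from 1 to 16 without a gap. These numbers were divided here into 3 library sets, with cuts after 6 and after 11. The cuts were chosen for this report, and the numbers themselves mark no boundary. Whether these sets were prepared apart is not stated. By this division set 1 held replicate 1 of WI, Foxb1, Irx3, Lhx8, Foxb1+Eomes and Irx3+Otx2, and set 2 replicate 2 of WI, Foxb1, Irx3, Lhx8 and Foxb1+Eomes. Set 3 held both Eomes libraries, both Otx2 libraries and Irx3+Otx2 2 but no WI library and no Foxb1+Eomes library. In Eomes and Otx2 against WI, and in Foxb1+Eomes against Eomes, the set and the injected mRNA therefore cannot be told apart. Marker genes of other tissues moved with some groups. The summed level of 8 mesoderm markers was 67.95 to 70.22 CPM (counts scaled to a common library size by TMM) in WI, 281.6 to 469.3 in Eomes and 979.7 to 1877 in Foxb1+Eomes. It was 298 to 309.6 in Lhx8, 200 to 242.7 in Irx3+Otx2, 130.8 to 178.3 in Foxb1, 118.8 to 217 in Otx2 and 48.63 to 118.2 in Irx3. The marker msgn1 was at 0 in WI, Otx2 and Irx3+Otx2. That of 10 ectoderm markers was 4914 to 6975 CPM in WI, 1492 to 2178 in Eomes, 1553 to 2191 in Otx2 and 1463 to 2083 in Irx3+Otx2. In such bulk samples fewer cells of a type and less RNA per cell cannot be told apart. Nothing in the labels says that the libraries of a group came from separate batches of embryos, so p-values measure only the spread between these libraries.

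In levels per length, cdh3 stood above all other members. C-cadherin is the protein of cdh3 in Xenopus, the maternal cadherin that holds the blastula together. Its mean over the 16 cap libraries was 216.3 TPM (transcript level corrected for target length and depth), from 88.27 to 299.8, and it made up 77.05% of the mean TPM of all 25 cadherins. E-cadherin (cdh1), the cadherin of epithelial ectoderm, came next among cadherins at 20.02 TPM (5.542 to 42.45), and N-cadherin (cdh2), the cadherin of the neural plate, had a mean of 2.54 TPM. Among Eph receptors the order was epha2 at 74.51 TPM, ephb3 at 28.93, ephb4 at 25.61, epha4 at 16.24 and ephb1 at 13.14. Among ephrins it was efna4 at 48.3 TPM, efna1 at 44.83, efnb2 at 9.104 and efna5 at 4.461. The most abundant protocadherin was pcdh1, known as axial protocadherin, at 13.43 TPM or 38.2% of the protocadherin total. Neighbours in these orders overlapped in their ranges, for instance efna4 (15.61 to 71.9 TPM) and efna1 (2.422 to 93.73 TPM), whereas cdh3 and cdh1 did not. In all, 23 members had a mean of at least 1 TPM and 12 of at least 10 TPM. Of the rest, cdh9, cdh17 and epha3 had no count in any cap library. The levels per length of epha2, efna4 and efna1 rest on deposited target lengths of 735, 507 and 360 bases. In total counts efnb2, with a target of 4676 bases, led the ephrins at 3639, against 1359 for efna4 and 667 for efna1.

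**Figure D1:**
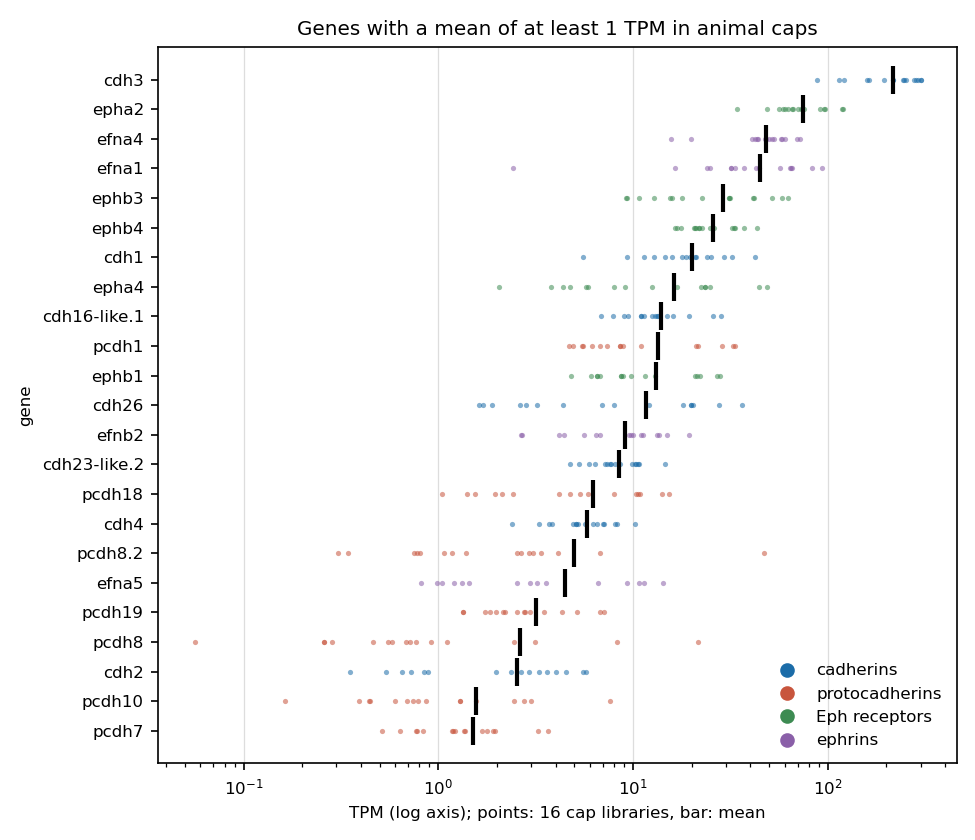
Level of each of the 23 genes with a mean of at least 1 TPM, on a log axis, with 1 point for each of the 16 cap libraries and a black bar for the mean. The cdh3 points lie between 88.27 and 299.8 TPM, while those of pcdh8.2 run from 0.3054 to 47.2 TPM.

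The 27 members with enough counts were tested for any difference among the 8 cap groups with edgeR's quasi-likelihood F test over 14176 genes (Benjamini-Hochberg adjusted p under 0.05). The test called 6 of the 27, where 2.02% of all tested genes were called. They were 3 protocadherins (pcdh8, adjusted p 0.00085, pcdh18, 0.0071, and pcdh8.2, 0.0117), 2 Eph receptors (epha4, 0.00865, and ephb3, 0.0171) and 1 cadherin (cdh26, 0.0264). An unadjusted p under 0.05 was reached by 14 of the 27, against 16.7% of all genes. The other 27 members stayed under the filter on low counts, with mean levels of at most 0.672 TPM. With the 3 library sets as a further term, epha4, ephb3, pcdh8.2 and pcdh8 were called (0.621% of all genes), and pcdh18 and cdh26 were not. On deposited TPM, limma called epha4, ephb3, pcdh18 and pcdh8 (2.91% of all genes) but not pcdh8.2 (adjusted p 0.0731) or cdh26 (0.0578). Leaving out 1 library at a time moved both the number of called members and the share of all genes called.

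**Figure D2:**
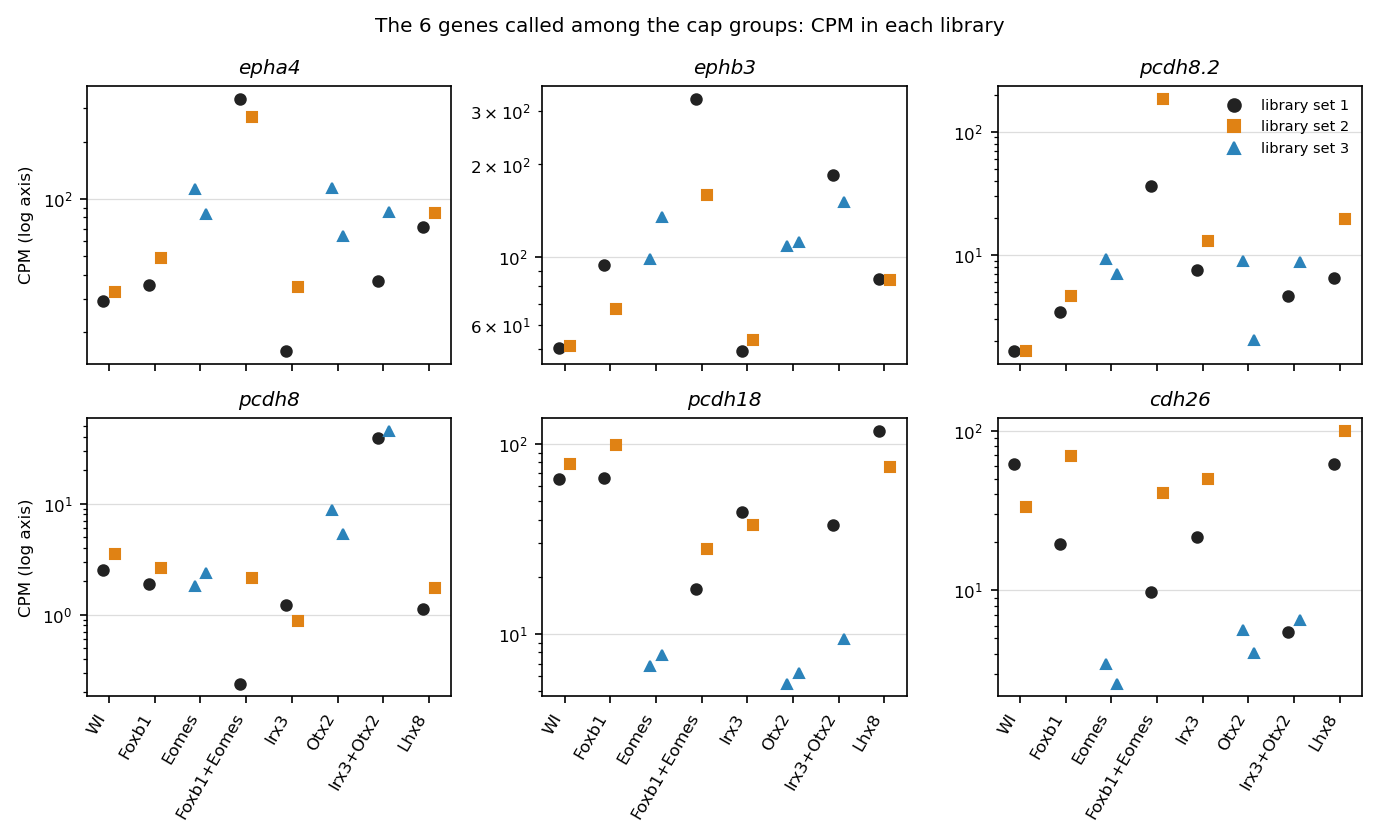
CPM of the 6 called genes in each of the 16 cap libraries, on log axes, with the library set shown by colour and shape. The highest points are both Foxb1+Eomes libraries for epha4 and pcdh8.2 and both Irx3+Otx2 libraries for pcdh8. For ephb3 they are Foxb1+Eomes 1 and then Irx3+Otx2 1. The lowest points of pcdh18 are the libraries of set 3, and those of cdh26 are the libraries of set 3 and Irx3+Otx2 1 of set 1.

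Both called Eph receptors had their highest group mean in the Foxb1+Eomes caps, the group in which the summed mesoderm markers were highest as well. EphA4 is a receptor whose forced activity loosens cell adhesion in Xenopus embryos. Its gene epha4 had 29.3 and 32.4 CPM (WI), 35.3 and 49.1 (Foxb1), 112 and 83.2 (Eomes), 336 and 269 (Foxb1+Eomes), 15.8 and 34.4 (Irx3), 115 and 64.1 (Otx2), 37.1 and 85.6 (Irx3+Otx2) and 71.05 and 84.1 (Lhx8). The Foxb1+Eomes libraries lay above all 14 others. Against WI the change was, in log2, 3.29 ± 0.49 (SE, adjusted p 0.0112), and within library sets 1 and 2 it was 3.50 and 3.03 on the same scale, with 0.5 CPM added. The difference from Foxb1 alone was, in log2, 2.84 ± 0.48 (SE, adjusted p 0.0565), short of the threshold, and 2.88 with the library sets as a term (adjusted p 0.0169), where epha4 was called. Eomes alone against WI gave a log2 change of 1.66 ± 0.46 (SE, adjusted p 0.111), without overlap between the libraries, and Lhx8 against WI gave a log2 change of 1.33 ± 0.46 (SE, adjusted p 1). The Otx2 libraries (115 and 64.1 CPM), of set 3 like those of Eomes, also lay above WI. Irx3+Otx2 had 85.6 CPM in set 3 and 37.1 in set 1. In Eomes and Otx2 against WI, set and injected mRNA cannot be told apart. Ephrin-B ligands bind the receptor EphB3, and ephb3 had 50.2 and 51.01 CPM (WI), 94.3 and 67.6 (Foxb1), 98.5 and 135 (Eomes), 328 and 159 (Foxb1+Eomes), 49.04 and 53.5 (Irx3), 108 and 111 (Otx2), 184 and 150.3 (Irx3+Otx2) and 84.3 and 83.9 (Lhx8). The 2 WI and 2 Irx3 libraries were the lowest and overlapped, and Foxb1+Eomes 1 and Irx3+Otx2 1 were the highest. Against WI the change in Foxb1+Eomes was, in log2, 2.27 ± 0.34 (SE, adjusted p 0.0124), with 2.70 and 1.63 within sets, and in Irx3+Otx2 it was, in log2, 1.73 ± 0.34 (SE, adjusted p 0.0804). Without Foxb1+Eomes 1, the ephb3 change against WI was 1.66 (adjusted p 0.0682), and with only the 4 libraries compared its adjusted p was 0.198. The calls of epha4, ephb3 and pcdh8.2 in Foxb1+Eomes were each lost without WI 1 or WI 2, at adjusted p of 0.243 to 0.390 and with log2 changes of 3.22 and 3.37 for epha4, 2.25 and 2.28 for ephb3, and 6.05 and 6.04 for pcdh8.2. Beside the mesoderm sum, that of 8 organizer markers was 449.3 to 680.3 CPM in Foxb1+Eomes and 33.16 to 47.71 in WI. It was also above WI in Eomes (109.1 to 260.1), Otx2 (113.4 to 151), Irx3+Otx2 (125.9 to 200.9), Lhx8 (126.3 to 154.8) and Foxb1 (69.93 to 82.42). The sum of 9 endoderm markers was 325 to 572.5 CPM in Foxb1+Eomes, 166.4 to 197.6 in Eomes and 21.74 to 35.94 in WI. In the remaining groups it ran from 32.5 (Irx3) to 104.3 (Irx3+Otx2). The part of mesoderm, organizer or endoderm cells in the 3 changes of epha4, ephb3 and pcdh8.2 was not tested.

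The other tested Eph receptors, epha2, ephb4 and ephb1, were called in no comparison by edgeR or DESeq2. The receptor gene epha2, first of the family in TPM on its short target but below ephb3, epha4 and ephb4 in total counts, had 39.9 and 46.5 CPM (WI), 37.5 and 57.9 (Foxb1), 41.4 and 43.1 (Eomes), 81.1 and 36.6 (Foxb1+Eomes), 42.1 and 28.8 (Irx3), 35.7 and 33.6 (Otx2), 25.9 and 26.03 (Irx3+Otx2) and 37.2 and 40.1 (Lhx8). Foxb1+Eomes 1 was the highest, while its partner Foxb1+Eomes 2 lay below WI. In ephb4, whose protein pairs with ephrin-B2, the values were 45.98 and 44.2 CPM (WI), 48.1 and 72.7 (Foxb1), 42.9 and 59.7 (Eomes), 91.1 and 44.5 (Foxb1+Eomes), 56.8 and 36.9 (Irx3), 44.8 and 51.8 (Otx2), 64.5 and 44.3 (Irx3+Otx2) and 58.4 and 55.6 (Lhx8), and again Foxb1+Eomes 1 was highest. For ephb1 they were 23.4 and 44.4 CPM (WI), 34.7 and 30.1 (Foxb1), 46.9 and 52.6 (Eomes), 32.7 and 18.1 (Foxb1+Eomes), 32.9 and 20.3 (Irx3), 52.2 and 51.2 (Otx2), 37.5 and 40.7 (Irx3+Otx2) and 18.6 and 21.9 (Lhx8). Eomes and Otx2 libraries were the highest in ephb1, and the difference between Foxb1+Eomes and Eomes was, in log2, −0.98 ± 0.38 (SE, adjusted p 0.261). Of the 9 EphA genes, the 7 others (epha3, epha5, epha6, epha7, epha7-like.1, epha8 and epha10) were too low to be tested.

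edgeR called no ephrin in any comparison, and DESeq2 called efna1 in the test over all groups. Ephrin-A1, a membrane-anchored ligand of EphA receptors, is encoded by efna1, which had 19.2 and 13.8 CPM (WI), 10.3 and 16.8 (Foxb1), 5.11 and 2.94 (Eomes), 0.477 and 6.22 (Foxb1+Eomes), 6.28 and 8.83 (Irx3), 6.499 and 3.95 (Otx2), 3.696 and 2.91 (Irx3+Otx2) and 12.7 and 14.7 (Lhx8). WI, Lhx8 and Foxb1 libraries lay at 10.3 CPM or above and all others below. Against WI the change was, in log2, −2.23 ± 0.72 (SE, adjusted p 0.553) in Foxb1+Eomes and −2.31 ± 0.72 (SE, adjusted p 0.239) in Irx3+Otx2. The Foxb1+Eomes change was −5.05 without Foxb1+Eomes 2 (adjusted p 0.0224) and −1.40 without Foxb1+Eomes 1, the library pair being far apart. The gene efna4, for another A-type ligand, had 22.3 and 20.2 CPM (WI), 16.2 and 20.5 (Foxb1), 12.96 and 9.07 (Eomes), 5.72 and 23.4 (Foxb1+Eomes), 25.1 and 19.96 (Irx3), 13 and 10.4 (Otx2), 8.21 and 8.43 (Irx3+Otx2) and 15.2 and 17.1 (Lhx8). It was lowest in Foxb1+Eomes 1 and in both Irx3+Otx2 libraries. Ephrin-B2, a transmembrane ligand that itself signals back into its cell, is encoded by efnb2, which had 68.8 and 62.2 CPM (WI), 66.2 and 48.6 (Foxb1), 35.04 and 12.6 (Eomes), 41.5 and 87.3 (Foxb1+Eomes), 16.7 and 73.1 (Irx3), 39.8 and 17.4 (Otx2), 18.2 and 13.2 (Irx3+Otx2) and 40.6 and 72.03 (Lhx8). The 2 Irx3 libraries lay near opposite ends of the range, both Irx3+Otx2 libraries lay far below WI, and the change in Irx3+Otx2 against WI was, in log2, −2.06 ± 0.70 (SE, adjusted p 0.272). The remaining tested ephrin, efna5, had 4.28 to 7.06 CPM in the libraries of set 3 and at most 3.34 in all others. The gene efna2 was too low to be tested in the caps. The genes efnb1 and efnb3 were not analysed here.

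The 2 largest log2 changes among the called members were in protocadherins. Paraxial protocadherin, the product of pcdh8.2 (papc is a synonym in the RefSeq gene table, assembly UCB_Xtro_10.0), is made by involuting mesoderm and helps it separate and extend. In the caps pcdh8.2 had 1.67 and 1.65 CPM (WI), 3.43 and 4.64 (Foxb1), 9.31 and 7.06 (Eomes), 36.2 and 185 (Foxb1+Eomes), 7.51 and 13.1 (Irx3), 8.89 and 2.03 (Otx2), 4.65 and 8.72 (Irx3+Otx2) and 6.48 and 19.5 (Lhx8). WI was lowest, all other libraries lay above it, and the Foxb1+Eomes libraries were highest and differed from each other more than those of any other group. The change in Foxb1+Eomes against WI was, in log2, 6.04 ± 0.98 (SE, adjusted p 0.0185), and within sets 1 and 2 it was 4.08 and 6.43. Without Foxb1+Eomes 2 it was 4.43 (adjusted p 0.0579). Smaller values stood in the other groups, with a log2 change of 2.96 ± 0.92 (SE, adjusted p 1) in Lhx8, a log2 change of 2.61 ± 0.91 (SE, adjusted p 1) in Irx3 and a log2 change of 2.28 ± 0.91 (SE, adjusted p 0.21) in Eomes. On the TPM scale, with 1 TPM added, limma gave a log2 change of 3.87 in Foxb1+Eomes (adjusted p 0.0125).

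The gene next to it in the RefSeq table, pcdh8, had another pattern. It had 2.51 and 3.51 CPM (WI), 1.87 and 2.65 (Foxb1), 1.82 and 2.35 (Eomes), 0.238 and 2.12 (Foxb1+Eomes), 1.23 and 0.883 (Irx3), 8.72 and 5.26 (Otx2), 39.2 and 44.9 (Irx3+Otx2) and 1.13 and 1.75 (Lhx8). Both Irx3+Otx2 libraries stood above all others, and the 2 Otx2 libraries came next. The change was, in log2, 3.78 ± 0.61 (SE, adjusted p 0.0347) against WI and 5.27 ± 0.67 (SE, adjusted p 0.0105) against Irx3 alone, where 1 of 27 members was called against 0.0494% of all genes. Against Otx2 alone it was, in log2, 2.59 ± 0.57 (SE, adjusted p 0.439). Within set 1, Irx3+Otx2 1 exceeded WI 1 by 3.72 and Irx3 1 by 4.52 (log2), and within set 3, Irx3+Otx2 2 exceeded the Otx2 libraries by 2.30 and 2.98. The call against WI was lost when any 1 of the 4 libraries was left out (adjusted p 0.0828 to 0.549) and with the library sets as a term (4.05, adjusted p 0.0656). That against Irx3 was lost without Irx3 1 (0.0894) or Irx3 2 (0.179). On the other side of pcdh8.2 lies pcdh17, which was at most 1.19 CPM in the 14 other libraries and 2.46 and 5.38 in Irx3+Otx2, a log2 change of 3.29 ± 1.15 (SE, adjusted p 0.281) against WI. It passed the filter on low counts only through the 2 Irx3+Otx2 libraries. Its higher level there was thus a condition of being tested, and no conclusion is drawn from its change. Markers of the neural plate other than the injected otx2 summed to 1094 to 1901 CPM in Irx3+Otx2, 1323 to 1488 in Otx2 and 699.2 to 1246 in WI, with overlap between Irx3+Otx2 and WI, and their part in the pcdh8 change was not tested. Since pcdh8 and pcdh8.2 are related copies, how the quantification divided reads between them is uncertain.

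Another pair of neighbours in the RefSeq table, pcdh18 and pcdh10, had unlike patterns. Both encode delta-protocadherins, a subfamily with roles in cell movement. The gene pcdh18 had 65.5 and 78.5 CPM (WI), 65.9 and 98.99 (Foxb1), 6.75 and 7.77 (Eomes), 17.2 and 27.9 (Foxb1+Eomes), 43.9 and 37.4 (Irx3), 5.47 and 6.22 (Otx2), 37.5 and 9.45 (Irx3+Otx2) and 117 and 75.5 (Lhx8). Eomes and Otx2 libraries lay at 7.77 CPM or below, far under WI, and Irx3+Otx2 2, of the same library set, at 9.45 against 37.5 in its partner. The change in Eomes against WI was, in log2, −3.30 ± 0.55 (SE, adjusted p 0.0319), and in Otx2 it was, in log2, −3.61 ± 0.56 (SE, adjusted p 0.101). With the library sets as a term the Eomes change was −1.25 (adjusted p 0.992), a fit in which the 2 Irx3+Otx2 libraries are the one link between set 3 and the rest. The call was also lost with any 1 library left out, at −3.16 to −3.44 (adjusted p 0.120 to 0.308), and on the TPM scale (−1.95, limma adjusted p 0.0534). In sets 1 and 2, where WI is present, Foxb1+Eomes differed from WI by −1.90 and −1.48 and Irx3+Otx2 1 by −0.80. Over both replicates the Foxb1+Eomes change was, in log2, −1.67 ± 0.51 (SE, adjusted p 0.479). In pcdh10 the values were 0.836 and 3.098 CPM (WI), 1.56 and 2.43 (Foxb1), 3.83 and 3.89 (Eomes), 4.29 and 2.88 (Foxb1+Eomes), 6.56 and 1.77 (Irx3), 9.75 and 6.94 (Otx2), 13.7 and 18.5 (Irx3+Otx2) and 2.26 and 3.28 (Lhx8). Irx3+Otx2 and Otx2 libraries were the highest and did not overlap with the other groups. Irx3+Otx2 against WI gave a log2 change of 2.97 ± 0.68 (SE, adjusted p 0.13) and Otx2 a log2 change of 2.03 ± 0.67 (SE, adjusted p 0.191).

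Among the remaining protocadherins, pcdh1 had 69.1 and 110.5 CPM (WI), 126 and 71.6 (Foxb1), 184 and 238 (Eomes), 107 and 89.4 (Foxb1+Eomes), 81.01 and 101 (Irx3), 198 and 235 (Otx2), 88.8 and 200.3 (Irx3+Otx2) and 73.6 and 86.5 (Lhx8). The 5 libraries of set 3 were the highest, from 184 to 238 CPM, against at most 126 in the other 11. Eomes against WI gave a log2 change of 1.23 ± 0.40 (SE, adjusted p 0.143), and Foxb1+Eomes differed from Eomes by a log2 change of −1.11 ± 0.40 (SE, adjusted p 0.247), a difference that was 0.05 with the library sets as a term. That last value rests on the Irx3+Otx2 libraries (88.8 and 200.3 CPM), the only link between set 3 and the rest. For pcdh19, a delta-protocadherin linked to N-cadherin in zebrafish, the values were 11.4 and 39.2 CPM (WI), 36.5 and 14.4 (Foxb1), 7.12 and 6.36 (Eomes), 16.5 and 24.4 (Foxb1+Eomes), 19.4 and 6.89 (Irx3), 9.23 and 14 (Otx2), 25.3 and 4.22 (Irx3+Otx2) and 18.6 and 12.3 (Lhx8). Replicates of WI, Foxb1 and Irx3+Otx2 lay further apart than the highest and the lowest group mean. The gene pcdh7, for the NF-protocadherin of ectoderm, had 11.1 and 8.47 CPM (WI), 3.43 and 6.19 (Foxb1), 12.2 and 3.297 (Eomes), 18.1 and 7.28 (Foxb1+Eomes), 7.65 and 8.48 (Irx3), 1.88 and 1.79 (Otx2), 4.79 and 3.199 (Irx3+Otx2) and 7.05 and 4.16 (Lhx8). The 2 Otx2 libraries were lowest, a log2 change of −2.40 ± 0.66 (SE, adjusted p 0.169) against WI. The low pcdh9 had 7.39 and 6.53 CPM in Foxb1+Eomes and at most 3.75 in the other libraries, a log2 change of 2.09 ± 0.63 (SE, adjusted p 0.478) against WI. The tested pcdh15 and pcdh20 stayed at or below 3.01 CPM in every library, and pcdh12 was too low to be tested.

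edgeR called none of the classical cadherins cdh3, cdh1 and cdh2 in any comparison, while DESeq2 called cdh2 in Eomes and in Otx2 against WI, in Foxb1+Eomes against Eomes and over all groups, and cdh1 in Irx3+Otx2 against Irx3. The C-cadherin gene cdh3 had 842 and 993 CPM (WI), 783 and 1012 (Foxb1), 763 and 730.3 (Eomes), 614 and 1063 (Foxb1+Eomes), 589 and 1123 (Irx3), 812 and 769.6 (Otx2), 503 and 744 (Irx3+Otx2) and 833 and 981 (Lhx8). All libraries of Irx3+Otx2, Eomes and Otx2 lay below the lower WI library, and the other groups overlapped with WI. The log2 changes of these 3 groups were −0.56, −0.30 and −0.21. None of these was called. On the TPM scale those in Eomes and Otx2 were 0.52 and 0.53, beside medians of 0.66 and 0.59 over all genes on that scale. The values of cdh1 were 80.3 and 83.02 CPM (WI), 51.2 and 90.1 (Foxb1), 63.5 and 40.9 (Eomes), 41.01 and 105 (Foxb1+Eomes), 70.9 and 149.6 (Irx3), 56.4 and 46.9 (Otx2), 27.4 and 27.6 (Irx3+Otx2) and 51.9 and 115 (Lhx8). Both Irx3+Otx2 libraries were the lowest, and their difference from Irx3 was, in log2, −2.002 ± 0.52 (SE, adjusted p 0.165). For cdh2 the values were 23.7 and 12.2 CPM (WI), 11.9 and 22.98 (Foxb1), 1.64 and 2.24 (Eomes), 29.1 and 15.02 (Foxb1+Eomes), 4.37 and 9.54 (Irx3), 2.39 and 1.68 (Otx2), 11.2 and 0.872 (Irx3+Otx2) and 18.9 and 14.9 (Lhx8). Eomes, Otx2 and Irx3+Otx2 2, the libraries of set 3, lay at 2.39 CPM or below and every other library at 4.37 or above. Foxb1+Eomes against Eomes gave a log2 change of 3.47 ± 0.89 (SE, adjusted p 0.22), which became −0.16 with the library sets as a term, and Eomes against WI gave a log2 change of −3.17 ± 0.88 (SE, adjusted p 0.113). In the fit with library sets, set 3 is linked to the rest only by the Irx3+Otx2 libraries (11.2 and 0.872 CPM). That fit therefore cannot separate the set from the injected mRNA.

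In cdh26, a cadherin of epithelia in mammals, low values followed the library set only in part. It had 61.6 and 33.3 CPM (WI), 19.4 and 68.9 (Foxb1), 3.47 and 2.59 (Eomes), 9.78 and 40.8 (Foxb1+Eomes), 21.4 and 49.6 (Irx3), 5.64 and 4.07 (Otx2), 5.48 and 6.54 (Irx3+Otx2) and 61.5 and 99.4 (Lhx8). The set 3 libraries and Irx3+Otx2 1 lay at 6.54 CPM or below, and all others at 9.78 or above. Eomes against WI gave a log2 change of −3.97 ± 0.78 (SE, adjusted p 0.0734), Otx2 a log2 change of −3.29 ± 0.75 (SE, adjusted p 0.158) and Irx3+Otx2 a log2 change of −2.97 ± 0.73 (SE, adjusted p 0.156). The single library of these groups in a set with WI, Irx3+Otx2 1, differed from WI 1 by −3.38. Within sets, the difference from WI changed sign between replicates in Foxb1, Foxb1+Eomes and Irx3. Beside these, the summed ectoderm markers given above were lower than in WI in the same Eomes, Otx2 and Irx3+Otx2 libraries. They were also lower in both Foxb1+Eomes libraries, where cdh2 (29.1 and 15.02 CPM) overlapped with WI, as did cdh26. The gene pcdh18 had 17.2 and 27.9 CPM there, below WI. The part of these markers' tissue in the levels of cdh26, cdh2 and pcdh18 was not tested. The remaining tested cadherins, cdh16-like.1, cdh23-like.2 and cdh4, were called in no comparison by edgeR or DESeq2. For cdh16-like.1 the values were 20.6 and 17.6 CPM (WI), 15.9 and 13.9 (Foxb1), 14.8 and 5.298 (Eomes), 17.2 and 32.5 (Foxb1+Eomes), 13.7 and 32.1 (Irx3), 13.5 and 6.22 (Otx2), 18.6 and 11.3 (Irx3+Otx2) and 14.4 and 26.9 (Lhx8). The lowest were Eomes 2 and Otx2 2, and replicates of Irx3 and of Foxb1+Eomes lay further apart than the highest and the lowest group mean. In cdh23-like.2 they were 39.3 and 38.8 CPM (WI), 44.02 and 57.7 (Foxb1), 45.99 and 38.1 (Eomes), 53.2 and 53.7 (Foxb1+Eomes), 59.7 and 40.98 (Irx3), 40.2 and 37.5 (Otx2), 38.2 and 51.5 (Irx3+Otx2) and 47.9 and 48.6 (Lhx8), a narrow range over all caps. The gene cdh4, for R-cadherin, had 1.02 to 5.25 CPM. The 18 other cadherins, among them VE-cadherin (cdh5) of blood vessels, cdh6 and cdh11, were too low to be tested.

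Taken by comparison, calls of members were few. Against WI, 3 members were called in Foxb1+Eomes (0.346% of all genes), 1 in Eomes (0.198%) and 1 in Irx3+Otx2 (0.127%). None was called in Foxb1, Irx3 or Otx2, where edgeR called 0% of all genes, nor in Lhx8 (0.00705%). At an unadjusted p under 0.05, the numbers were 10 members in Eomes (4 higher and 6 lower) against 18.7% of all genes, 9 in Otx2 (4 and 5) against 16.6%, and 12 in Irx3+Otx2 (6 and 6) against 12.8%. They were 6 in Foxb1+Eomes against 4.60%, 3 in Lhx8 against 1.50%, 2 in Irx3 against 1.38% and 1 in Foxb1 against 0.600%. DESeq2 called no member in Foxb1, Irx3 or Lhx8 against WI. In Otx2 it called 5 of the 21 members to which it gave an adjusted p (cdh2, cdh26, epha4, pcdh18 and pcdh7), against 4.45% of all such genes. The median log2 change of the 27 members was −0.35 in Irx3+Otx2, −0.28 in Irx3, −0.16 in Eomes and 0.12 in Foxb1+Eomes, beside 0.07, 0.04, 0.01 and 0.04 over all genes tested, and between −0.03 and −0.02 in Foxb1, Otx2 and Lhx8. These comparisons share the WI libraries.

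**Figure D3:**
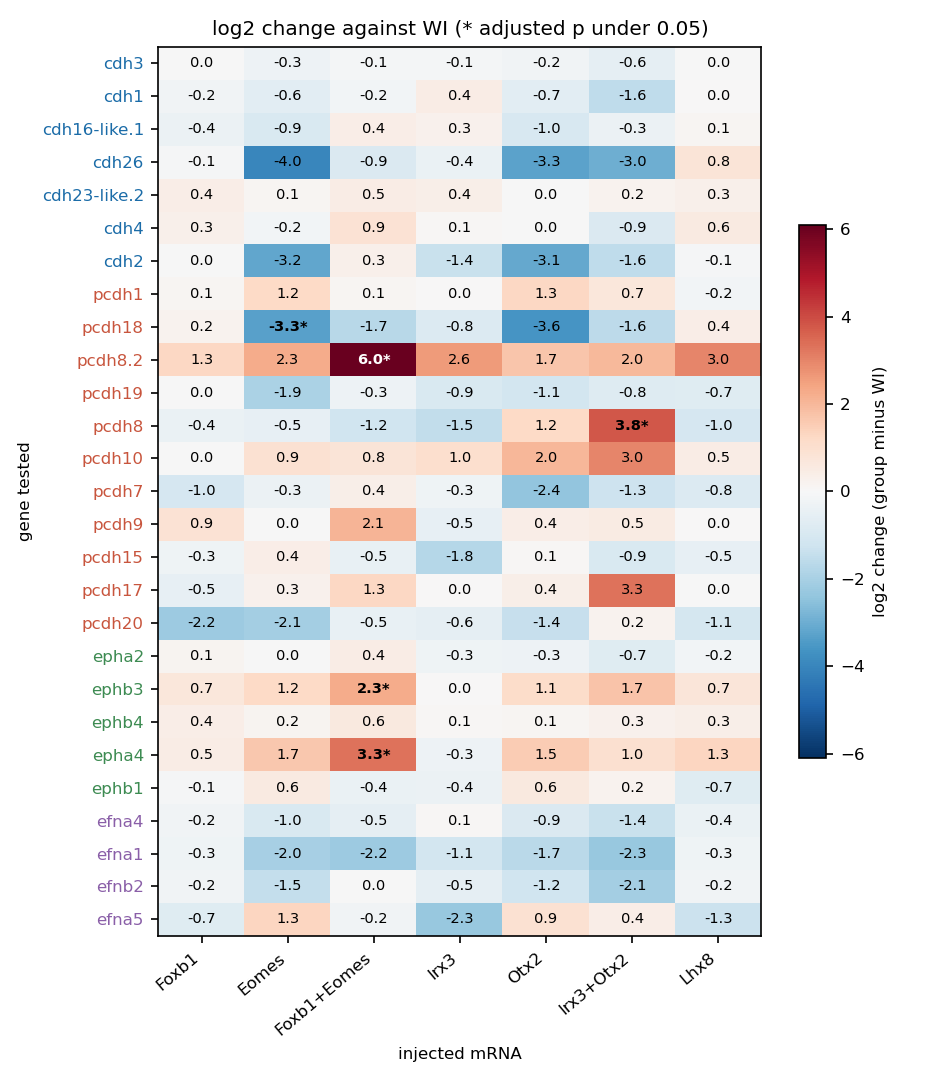
The log2 change against WI for the 27 tested genes (rows, coloured by family) in the 7 injected groups (columns), with red for higher and blue for lower than WI and an asterisk for an edgeR adjusted p under 0.05. The 5 asterisks mark pcdh18 in Eomes, epha4, ephb3 and pcdh8.2 in Foxb1+Eomes, and pcdh8 in Irx3+Otx2.

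Between a pair of factors and each factor alone, edgeR called no member in Foxb1+Eomes against Foxb1 (0.0705% of all genes) or against Eomes (0.0423%), nor in Irx3+Otx2 against Otx2 (0%). With the library sets as a term, 2 members were called against Foxb1, epha4 and pcdh8.2 (4.51, adjusted p 0.0417), beside 0.155% of all genes. At an unadjusted p under 0.05 there were 6 members against Foxb1 (4.06% of all genes), 10 against Eomes (15.4%), 10 in Irx3+Otx2 against Irx3 (14.6%) and 3 against Otx2 (4.71%). DESeq2 called epha4, ephb3 and pcdh8.2 against Foxb1 (0.501% of all genes), cdh2, cdh26, epha4 and pcdh8.2 against Eomes (2.45%), and pcdh8 against Otx2 (0.160%). Both Eomes libraries were from set 3 and both Foxb1+Eomes libraries from sets 1 and 2. Against Eomes, set and added Foxb1 therefore cannot be told apart, and with the library sets as a term edgeR called no member there (0% of all genes). An interaction test asked whether the log2 change of a pair differed from the sum of its factors' log2 changes (pair minus both singles plus WI). No member was called for Foxb1 with Eomes or Irx3 with Otx2, nor any gene (0% each), while DESeq2 called none for the first pair and pcdh8 for the other (0.0126% and 0.0295% of all genes). In these tests 4 and 3 members reached an unadjusted p under 0.05, against 8.16% and 1.78% of all genes. For pcdh8 the interaction of Irx3 and Otx2 was, in log2, 4.08 ± 0.86 (SE, adjusted p 1). In cdh2 the interaction of Foxb1 and Eomes was, in log2, 3.50 ± 1.17 (SE, adjusted p 0.606). Here the Eomes libraries come from set 3 and the other 3 groups from sets 1 and 2, so that set and interaction cannot be told apart. In the interaction of Irx3 and Otx2, both Otx2 libraries come from set 3 and the WI and Irx3 libraries from sets 1 and 2. The Irx3+Otx2 libraries are split between sets 1 and 3. Set and interaction are therefore not fully separated for that pair either, pcdh8 included.

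Genes that act with these families were called about as rarely as all genes, of which 2.02% were called over all groups and at most 0.346% in a contrast. None of the 16 tested genes of a list of catenins, junction linkers and related genes was called in any bulk comparison. The same held for 8 tested members of the wider cadherin superfamily (Fat, Dachsous, Celsr, calsyntenins and the like). Of 13 tested regulators of cadherins, snai1, a repressor of E-cadherin transcription in mammals, was called. It had 6.69 and 7.44 CPM in WI and 132 and 49.5 in Foxb1+Eomes, a log2 change of 3.68 ± 0.66 (SE, edgeR adjusted p 0.0315), and 118 and 38.2 CPM in Irx3+Otx2. Of 24 tested genes of Eph and ephrin signalling, spsb1 alone was called, and only in the test over all groups (adjusted p 0.0264), with 188 to 344 CPM in the libraries of set 3 and 46.4 to 86.2 in the others.

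The explant cells compared AC, the animal cap, with BL, a name not spelled out in the labels. The markers set these libraries apart: the mesoderm sum was 73.39 to 127.7 CPM in AC and 2325 to 3169 in BL, and msgn1 and mespb were at 0 in AC. Of 8 organizer markers gsc, nog, cer1 and frzb were at 0 in both AC libraries, and the sum of all 8 was 203.5 to 449.4 in AC and 2012 to 6767 in BL. The sum of 9 endoderm markers was 40.77 to 49.74 in AC and 558.9 to 1460 in BL. Of these, mixer and hhex were at 0 in AC, and mixer and a2m in BL. Reads were summed over the 25 cells of each library, and 14 members were tested among 8898 genes. edgeR called none, as it called no gene (0%). An unadjusted p under 0.05 was reached by 6 members, all higher in BL, against 5.43% of all genes in both directions together. Of these 6, pcdh8.2 and pcdh7 stood at or below 0.906 CPM in AC. They passed the filter on low counts only through BL, so their direction was set by the filter. DESeq2 called 2, epha4 and pcdh8.2, beside 1.15% of all genes. The receptor gene epha4 had 23.7 and 13.6 CPM in AC and 301 and 533 in BL, a log2 change of 4.44 ± 0.55 (SE, adjusted p 0.0814). Paraxial protocadherin pcdh8.2 had 0 and 1 read in AC and 240 and 497 in BL, 105 and 766 CPM. Over both libraries the ratio of BL to AC was 1112 (exact 95% counting interval 198.9 to 4.397e+04), and edgeR gave a log2 change of 10.45 ± 1.52 (SE, adjusted p 0.0986). The interval takes each read as a separate count, though the reads carry no molecular identifiers. It leaves out the spread between cells and libraries, and 24.42% of the BL reads of pcdh8.2 came from 1 cell. Neither epha4 nor pcdh8.2 overlapped between the regions.

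Other members showed smaller differences between the regions. Ephrin-B2 (efnb2) had 66.8 and 69.8 CPM in AC and 159.9 and 236 in BL, a log2 change of 1.53 ± 0.46 (SE, adjusted p 0.721). For ephb3 the values were 54.5 and 36.2 against 69.7 and 261, and for cdh2 they were 20.7 and 34.4 against 138 and 46.2. In both, BL lay above AC without overlap. NF-protocadherin pcdh7 had 1 read in AC and 33 in BL, a ratio of 49.77 (exact 95% counting interval 8.333 to 2025). This interval has the limits given for that of pcdh8.2, and 69.7% of the pcdh7 reads in BL came from 1 cell. Since pcdh7 passed the filter on low counts only through BL, no conclusion is drawn from its ratio. C-cadherin (cdh3) had 549 and 564 CPM in AC and 501 and 349.9 in BL, a log2 change of −0.39 ± 0.38 (SE, edgeR adjusted p 0.989), about the size of its SE. Its BL libraries lay below both AC libraries, but with 2 libraries a region non-overlap alone is weak evidence of a difference, for cdh3 and for the other members. Ephrin efna2 had 8.39 and 6.34 in AC and 0.871 and 0 in BL, with 26 of its 35 AC reads in 1 cell. It passed the filter on low counts only through AC. E-cadherin (cdh1) had 55.4 and 132 in AC and 57.9 and 15.4 in BL, and pcdh1 had 210.4 and 117 and 199 and 108, both with overlap. The remaining tested members, efna4, ephb1, pcdh18 and pcdh19, also overlapped.

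**Figure D4:**
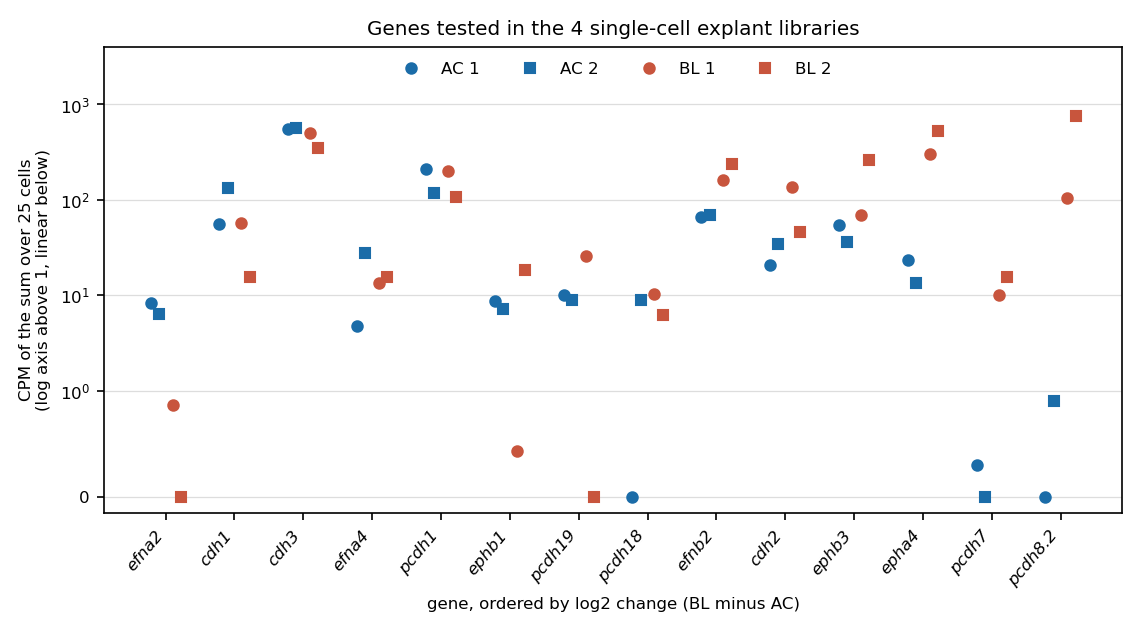
CPM of the 14 tested genes in the 4 explant libraries (blue AC, red BL, circles for library 1 and squares for library 2), on an axis that is logarithmic above 1 and linear below, ordered by log2 change. The pcdh8.2 points lie below 1 in AC and at 105 and 766 in BL, while cdh3 lies between 350 and 564 in all 4 libraries.

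Counted by cell, pcdh8.2 had reads in 1 of 50 AC cells (2%) and in 33 of 50 BL cells (66%, exact 95% binomial interval 51.23% to 78.79%). For epha4 these were 9 AC cells (18%) and 38 BL cells (76%). E-cadherin (cdh1) had reads in 27 AC cells (54%) and 9 BL cells (18%), and cdh3 in 45 (90%) and 33 (66%). Cells of AC were deeper, with a median of 6.022e+04 reads against 3.496e+04 in BL. Thinned to 10000 reads, which kept 44 AC and 41 BL cells, pcdh8.2 was found in 1 AC (2.273%) and 16 BL cells (39.02%) and epha4 in 3 AC (6.818%) and 26 BL cells (63.41%). In the same thinned cells cdh1 was found in 17 AC (38.64%) and 5 BL cells (12.2%), and ephb3 in 7 AC (15.91%) and 18 BL cells (43.9%). Before thinning, 29 of the 33 BL cells with pcdh8.2 reads also had epha4 reads, as did 26 of the 27 with ephb3 reads. Of all 50 BL cells, 38 had epha4 reads. Cells with few reads, down to 75 in BL 1, were kept in these counts and add to the cells with neither gene. Whether the genes met in a cell more often than depth alone would give was not tested. All 9 BL cells with cdh1 reads had pcdh8.2 reads too, and these 9 were deep cells with a median of 1.028e+05 reads, 1 of which held 65.73% of the cdh1 reads of BL. The reads carry no molecular identifiers, so amplified copies cannot be told from separate molecules. The binomial intervals take cells as independent draws and leave out the spread between libraries, and cells of 1 library are not replicates.

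**Figure D5:**
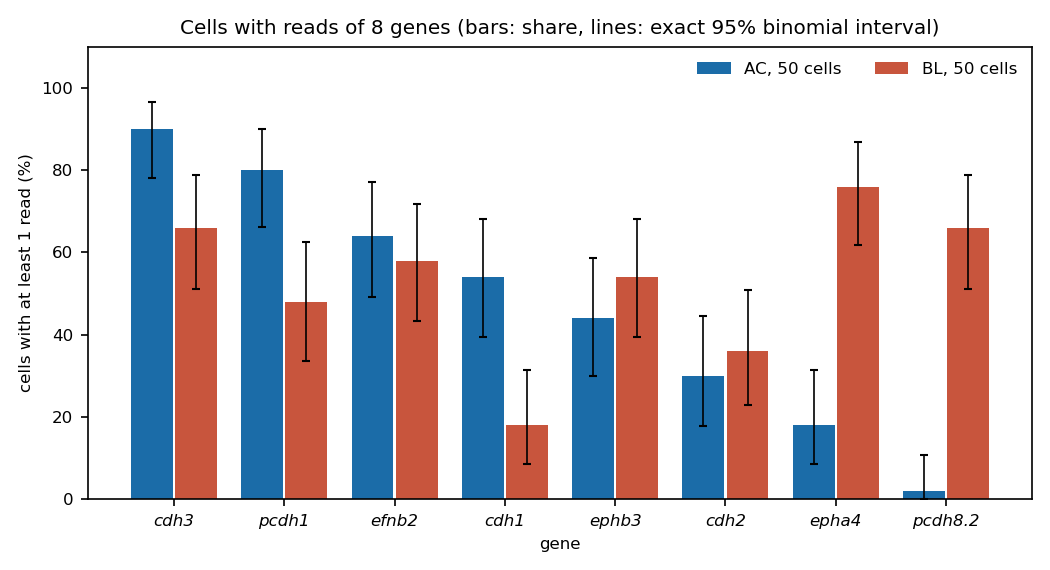
Share of the 50 AC and 50 BL cells with at least 1 read of 8 genes, with the exact 95% binomial interval, before thinning. The share is higher in AC for cdh3, pcdh1 and cdh1 and higher in BL for epha4 (18% against 76%) and pcdh8.2 (2% against 66%).

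Detection differed between the kinds of library. Over all cells 37 of the 54 members had a read. The genes epha2, efna1, cdh4, cdh23-like.2, pcdh8 and pcdh20, which had counts in all 16 cap libraries, had none in the cells, and ephb4 had 8 reads, all in BL 2. In reverse, cdh9, cdh17 and epha3 had 3 to 5 reads in the cells and none in the caps. Levels of such genes were therefore compared within 1 kind of table only.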

How the data were processed

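Bulk RNA-seq tables were deposited with a length, an estimated count and TPM per target, per the file headers. The submitters' processing notes name STAR 2.5.0, and which tool gave the estimated counts is not given in the sources used here. Single-cell tables hold read counts per gene and cell as deposited by the authors, from hand-picked cells and without molecular identifiers, per the labels' protocols. No doublet caller was run. Deposited totals were 3234566 to 9218356 in bulk, where 16.7% of values were not whole and were rounded.

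Counts were fitted in edgeR 4.0.16 (R 4.3.3) with TMM scaling, filterByExpr, robust quasi-likelihood and Benjamini-Hochberg adjustment over all 14176 bulk or 8898 single-cell genes, with a threshold of 0.05. One bulk fit took all 16 libraries, and 13 contrasts and 1 F test came from it. The 25 cells of each explant library were summed. SE is the log2 change divided by the root of F. Values of the text in CPM use these library sizes. DESeq2 1.42.0 and limma 3.58.1, the latter on deposited TPM (log2 with 1 added, an alternative chosen after seeing the data), served as alternatives. The fits were tested on simulated data.

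Values in every library are given for called members, for the 2 highest and 2 lowest changes of each comparison whose groups did not overlap (mean log2 CPM of at least 2), for the 10 most abundant members and for textbook genes of the gastrula. Members and lists were chosen with earlier results of these data known. Of the 54 symbols 49 are in the RefSeq gene table used for names and neighbours.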

Additional observations from a re-analysis of the deposited data

How the results depend on the processing

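The number of called members depended on the fit, as did the share of all genes called, given in brackets among genes with an adjusted p. DESeq2 called 11 in place of 6 over all groups (11.5%), 6 in place of 1 in Eomes (7.89%), 5 in place of 0 in Otx2 (4.45%), 4 in place of 1 in Irx3+Otx2 (1.80%) and in Irx3+Otx2 against Irx3 (2.02%), 3 and 4 in place of 0 in Foxb1+Eomes against Foxb1 (0.501%) and Eomes (2.45%), 1 in place of 0 in Irx3+Otx2 against Otx2 (0.160%) and in the interaction of Irx3 and Otx2 (0.0295%), and 2 in place of 0 in BL against AC (1.15%). Without the filter on low counts, 15 were called over all groups (13.2%), 8 in Eomes (6.04%), 5 in Foxb1+Eomes (1.27%), 1 in Irx3 (0.261%), 6 in Otx2 (4.62%), 9 in Irx3+Otx2 (3.60%), 1 in Lhx8 (0.401%), 4 and 7 in Foxb1+Eomes against Foxb1 (0.869%) and Eomes (4.39%), 6 and 2 in Irx3+Otx2 against Irx3 (4.66%) and Otx2 (1.75%), 2 and 3 in the interactions (1.34% and 0.683%) and 2 in BL against AC (0.913%). With the replicate block these were 2 in Eomes (0.296%), 1 in Foxb1+Eomes against Foxb1 (0.162%) and 2 in BL against AC (0.899%), and the replicate block moved no other count. Same-numbered libraries deviated together in some pairs of groups and not in others: the correlation of deviations from group means ran from −0.24 to 0.73 over 28 pairs, with 12 over 0.1, and was 0.198 for AC and BL. The numbers were therefore not taken as pairs. The highest correlation was that of Eomes with Otx2, both of set 3, which no comparison here set against each other. With the library sets as a term, counts were 0 in Eomes (0%), 0 in Irx3+Otx2 (0.0494%) and 2 in Foxb1+Eomes against Foxb1 (0.155%). With only the libraries compared, 2 were called in Eomes (0.769%) and 1 in Otx2 (0.111%). On deposited TPM 3 were called in Irx3+Otx2 (0.783%) and 4 over all groups (2.91%). Leaving out 1 library leaves 1 library in a group, and the number of called members and the share of all genes called both moved. The calls in Eomes and in Irx3+Otx2 against WI were lost in every case. In BL against AC, 3 libraries remain and the lone one is assumed to vary like the other region, so calls there say nothing about stability. The cause was not tested.

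Of 532 alternative values of 49 single changes, 459 kept direction and side of the threshold, 49 passed it newly, 22 lost it and 2 turned: with the library sets as a term, Foxb1+Eomes against Eomes was −0.16 in cdh2 (3.47 otherwise) and 0.0502 in pcdh1 (−1.11 otherwise). Both turned values rest on the Irx3+Otx2 libraries as the only link between set 3 and the rest. On the TPM scale the median of all genes moved by 0.66 in Eomes, 0.59 in Otx2 and 0.35 in Irx3+Otx2 against 0.01, 0.01 and 0.07 in the count fit. There 45 of 351 member changes had the opposite sign, none of them with an unadjusted p under 0.05, among them cdh1 in Eomes (−0.65 and 0.13). Depth limits the explant cells, where 1 library (BL 2) had 755591 reads, and 2 libraries a group limit all tests.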

Other observations

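The 3 neighbouring genes pcdh17, pcdh8.2 and pcdh8 were not highest in the same caps: pcdh17 and pcdh8 had their highest CPM in both Irx3+Otx2 libraries and pcdh8.2 in both Foxb1+Eomes libraries. The low pcdh17 passed the filter on low counts only through the Irx3+Otx2 libraries. In the single cells pcdh8.2 had 737 reads in BL and pcdh8 had 0 in BL and AC. The single gene called among the regulators of cadherins, snai1, also stood higher in BL than in AC, with 22.8 and 7.25 CPM in AC and 292 and 630.5 in BL, a log2 change of 4.86 (edgeR adjusted p 0.0986). The cadherin gene cdh11 had 34 reads in the explants, all in 1 BL cell.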
